A study of Mus musculus with 6 samples.

Results

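The WNT ligands measured here were 10 genes, Wnt1, Wnt2b, Wnt3a, Wnt4, Wnt5a, Wnt5b, Wnt6, Wnt7a, Wnt7b and Wnt11, of 18193 genes with a probe set on the array. They were taken by gene symbol, with every probe set that the array's annotation gives to 1 of these symbols, which came to 19 of 45101 probe sets. The rule used the symbols alone, though the list was drawn up with earlier results of these data known. All 10 passed the filter on low values, a mean intensity above 13.26. Of the 9 other WNT ligand genes on the array 4 passed, and of the 18193 genes 14170 did. Since the list was drawn up that way, this contrast is not read as a result. The tissue was dissected from mouse embryos at embryonic day 11.5 and held the otic vesicle, an epithelial sac from which the inner ear forms, together with its surrounding periotic mesenchyme. Mest-KO embryos had lost conditional Tbx1 through T-Cre, a Cre recombinase active in mesoderm, and control embryos carried T-Cre too and were heterozygous for the conditional Tbx1 deletion. Tbx1 encodes a T-box transcription factor. Each array held RNA from 3 pooled embryos of 1 genotype, and there were 3 arrays of each genotype. Because T-Cre acts in mesoderm, the otic epithelium and the neural tissue beside it are not its target, and the controls are not wild type.

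WNT proteins are secreted, lipid-modified signals. They bind Frizzled receptors together with the co-receptors Lrp5 and Lrp6 to stabilise beta-catenin, or act through Ror and Ryk receptors and the planar cell polarity proteins to direct cell movement and orientation. In the ear, WNT signals from the dorsal hindbrain pattern the dorsal otic vesicle, and Wnt5a takes part in the elongation of the cochlea.

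The arrays of the study resembled each other closely, with correlations of log2 intensities between 0.987 and 0.993 for any pair. Values are intensities on a linear scale, with the same trimmed mean on every array as deposited. Bacterial control probe sets that were not spiked in reached at most 11.2 on any array, which is used here as the level of background. Differences are Mest-KO minus control of log2(intensity + 16), which understates the change of dim genes. The Tbx1 probe set read 502.8 ± 85.4 in Mest-KO and 512.8 ± 61.1 in control (SD, n = 3 arrays each). It does not check the labels, because whether it lies in the deleted part is not given in the sources used here. Markers of the labelled tissue were present. The 15 otic epithelium genes on the array summed to 12549 to 14545 in Mest-KO and 11808 to 14031 in control. Dim ones such as Hmx3, at 16.6 in Mest-KO and 17.2 in control, add little to that sum. Of the 15, 8 had differences above 0 and 7 below. At an unadjusted p under 0.05 in limma, Sox10 was higher and Otx1 and Gata3 were lower, against 5.73% and 3.24% of all genes. The 12 periotic mesenchyme genes summed to 20303 to 22906 in Mest-KO and 22690 to 23878 in control. In whole dissected tissue, fewer cells of a type and less RNA per cell cannot be told apart.

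Of the 10 WNT ligand genes, 0 passed the threshold of 0.05 on the adjusted p over the 14170 genes tested (limma with Benjamini-Hochberg adjustment), where 21 genes (0.148%) passed in all, 12 higher (0.0847%) and 9 lower (0.0635%) in Mest-KO. With arrays centred on their medians that split was 22 higher and 54 lower. At an unadjusted p under 0.05, 1 ligand gene differed, Wnt7b, against 8.97% of all genes. The groups did not overlap for 1 of 10 ligand genes, again Wnt7b, against 14.5% of all genes (9.32% higher and 5.22% lower in Mest-KO). The median log2 difference of the 10 genes was -0.19, with 7 below 0 and 3 above, beside a median of 0.01 over all genes, of which 46.2% were below 0. Of the 19 probe sets, 17 passed the filter on low values. Of those 17 probe sets 0 passed, against 0.0748% of all 26736 probe sets tested, and 1 was lower at an unadjusted p under 0.05, against 9.16% of all (3.26% lower and 5.9% higher). Groups did not overlap for 2 of the 17, against 14.6%. Probe sets differ in how well they bind, so the levels of different ligands are not ranked against each other.

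**Figure D1:**
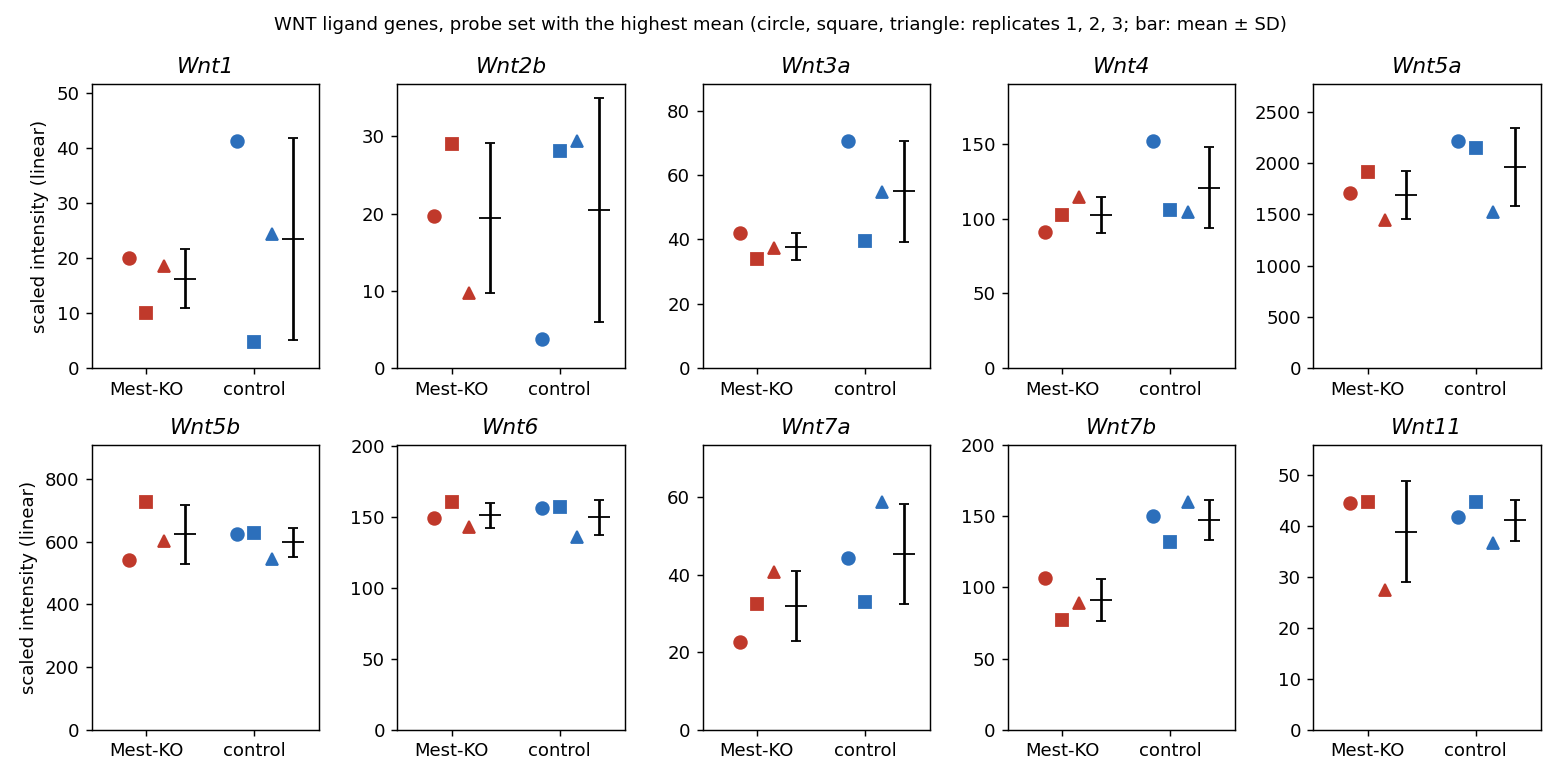
Scaled intensity (linear, from 0) of each WNT ligand gene in the 3 Mest-KO arrays (red, left) and the 3 control arrays (blue, right), with the mean ± SD of each group as a black bar. For Wnt7b the highest Mest-KO array, at 106.6, lies under the lowest control array, at 132.1, while the groups overlap for the other 9 genes.

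Wnt7b differed most among the ligands. Wnt7b is a ligand of lung epithelium and of the neural tube, where it acts with Wnt7a on ingrowing blood vessels. It read 106.6, 77.2 and 89.2 in Mest-KO 1, 2 and 3, against 150.3, 132.1 and 160.1 in control 1, 2 and 3. All 3 Mest-KO arrays were below all 3 control arrays, and the ratio of the group means was 0.617. The log2 difference was -0.62 ± 0.16 (SE), with a 95% interval from -0.96 to -0.27, an unadjusted p of 0.0023 and an adjusted p of 0.207 in limma, so it did not pass over all genes. The exact permutation p was 0.1, the smallest that 3 arrays against 3 allow. A second and dimmer Wnt7b probe set read 15.9, 27.2 and 43.1 in Mest-KO, against 38.3, 25.5 and 50.7 in control. Its groups overlapped, and its log2 difference was -0.30 ± 0.25 (limma over all probe sets, adjusted p = 0.784). The annotation gives both Wnt7b probe sets the same source sequence. The gap between them did not differ detectably between genotypes (difference of within-array log2 ratios of intensity + 16 was 0.32, exact permutation p = 0.5). The difference of Wnt7b stayed negative under all 19 alternatives, from -0.72 to -0.45, and passed in 0 of them.

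Wnt7a, which patterns the dorsal side of the limb and is made in neural tube and otic epithelium, read 22.6, 32.4 and 40.7 in Mest-KO, against 44.3, 33.1 and 58.8 in control. The highest Mest-KO array, Mest-KO 3, was above control 2, so the groups overlapped. The log2 difference was -0.36 ± 0.21, with an interval from -0.82 to 0.11 (limma, adjusted p = 0.654). The other 2 Wnt7a probe sets were below the filter. One of them was at or below the unspiked level on all 6 arrays and the other on 2 arrays of each group, so neither gives a usable difference. Within an array, the log2 ratio of the Wnt7a to the Wnt7b probe set was -1.17 ± 0.43 in Mest-KO and -1.43 ± 0.18 in control (SD, n = 3 each; exact permutation p = 0.4). With 3 arrays against 3, whose smallest possible p is 0.1, that ratio could not show whether the 2 ligands differed unequally.

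Adgra2 and Reck encode the co-receptors through which WNT7 ligands act on vessels in the brain. Adgra2 differed by -0.08 ± 0.14 on the log2 scale and Reck by -0.03 ± 0.12 (limma, adjusted p = 0.905 and 0.963). Without control 1 both turned, to 0.051 for Adgra2 and 0.066 for Reck.

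Wnt1 and Wnt3a mark the dorsal midline of the neural tube and act through beta-catenin. Both were dim. Wnt1 read 20.0, 10.1 and 18.6 in Mest-KO, against 41.3, 4.79 and 24.4 in control, and 1 array of each group was at or below the unspiked level. Control 2 was the lowest array of all and control 1 the highest, so the controls spanned the whole Mest-KO range. The log2 difference was -0.19 ± 0.32, with an interval from -0.90 to 0.52 (limma, adjusted p = 0.902). Wnt3a read 42.1, 33.9 and 37.2 in Mest-KO, against 70.7, 39.4 and 54.8 in control. Control 1 and control 3 were above every Mest-KO array and control 2 was among them. The log2 difference was -0.38 ± 0.19, with an interval from -0.80 to 0.04 (limma, adjusted p = 0.595; exact permutation p = 0.2). Without control 2 the log2 differences were -0.59 ± 0.23 for Wnt1 and -0.55 ± 0.19 for Wnt3a, and neither passed (limma, adjusted p = 0.391 and 0.320). Without control 1 that of Wnt1 was 0.14 ± 0.29.

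The promoters of these 2 genes are printed because control 1 and control 3 were the highest arrays for both. The sequences are RefSeq's for build GRCm38.p6, 300 bases from 250 before the gene's start to 50 after it, 5′ to 3′ on the gene's strand. Wnt1 lies at chr15:98789607-98789906 on the plus strand and Wnt3a at chr11:59290702-59291001 on the minus strand. Capitals mark matches to the motifs searched on both strands, the T-box site AGGTGTGA, its core GGTGTG, which overlaps it, the TCF/LEF core CTTTGA and the GLI site GACCACCCA.
Wnt1: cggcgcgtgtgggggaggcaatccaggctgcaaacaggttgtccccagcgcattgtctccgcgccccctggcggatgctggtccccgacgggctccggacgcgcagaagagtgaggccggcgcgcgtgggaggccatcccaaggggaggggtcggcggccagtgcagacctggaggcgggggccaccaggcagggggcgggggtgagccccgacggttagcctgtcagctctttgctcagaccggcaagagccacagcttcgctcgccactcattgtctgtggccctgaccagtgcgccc
Wnt3a: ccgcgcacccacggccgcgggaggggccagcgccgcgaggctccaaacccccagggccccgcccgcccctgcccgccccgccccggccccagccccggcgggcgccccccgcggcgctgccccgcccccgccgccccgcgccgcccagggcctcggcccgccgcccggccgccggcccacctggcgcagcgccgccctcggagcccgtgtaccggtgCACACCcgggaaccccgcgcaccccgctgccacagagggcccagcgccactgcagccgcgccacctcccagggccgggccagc
The Wnt1 window held no match, and the Wnt3a window held 1, CACACC, the T-box core on the other strand, starting 33 bases before the gene's start. That core was found in 19% of all 32851 promoters of the table, the full T-box site in 1.28%, the TCF/LEF core in 16% and the GLI site in 0.253%. Of the 10 ligand genes, 8 had a promoter in the table, with 11 promoters in all. The full T-box site and the GLI site matched in 0 of the 11. The TCF/LEF core matched in 1 promoter of Wnt11 and 1 of Wnt5b, and the T-box core also in 1 promoter of Wnt2b and 1 of Wnt5b. The ligand promoters were rich in G and C, with a median of 76.0% and 42 CG pairs, against 52.7% and 7 over all promoters. A match is a description of letters, and these data do not test any factor's binding.

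**Figure D2:**
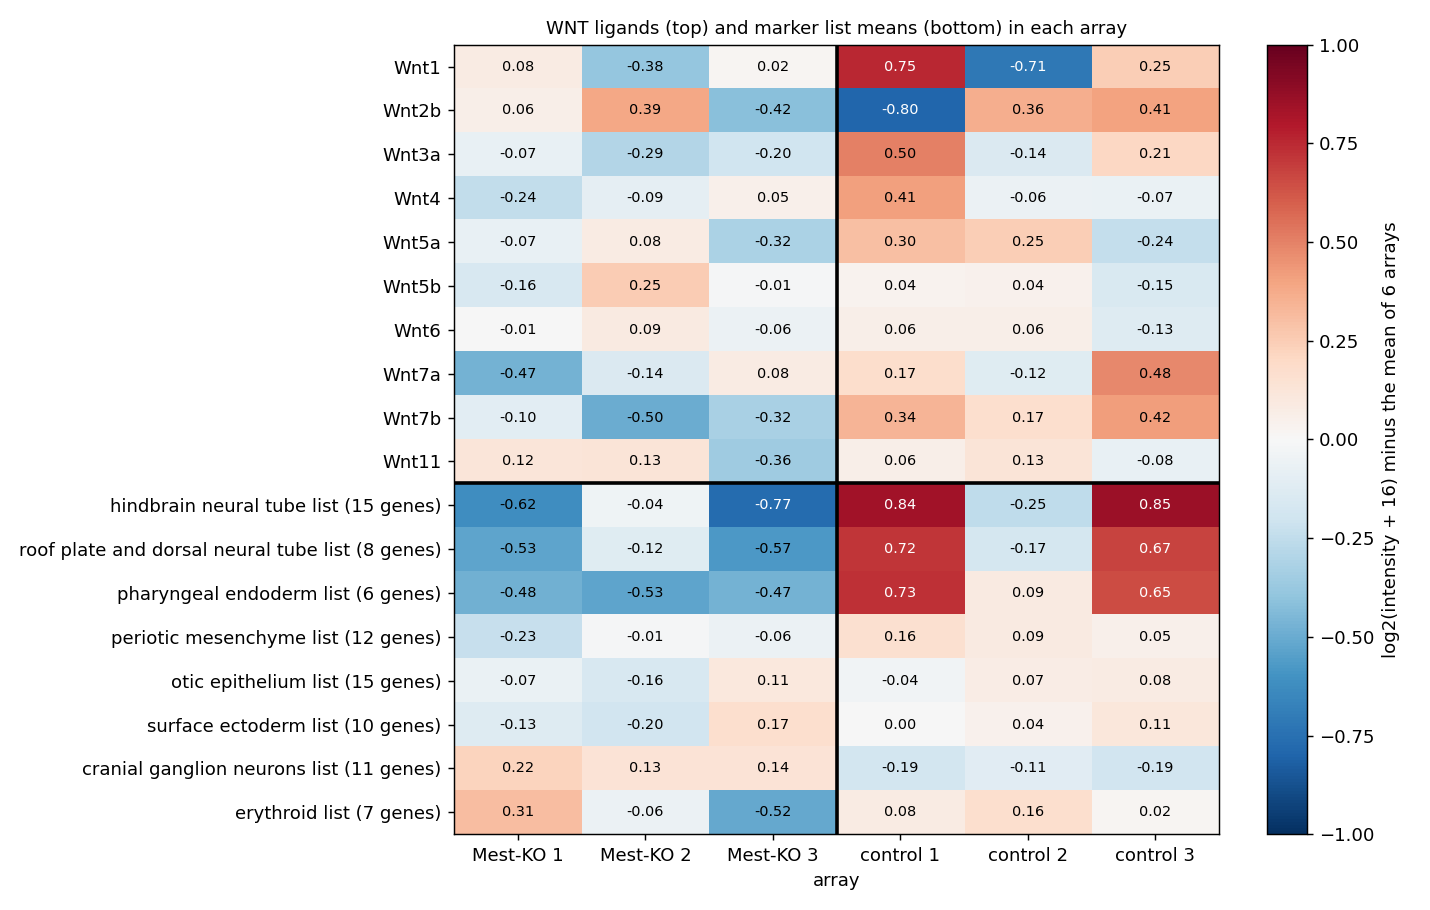
Log2(intensity + 16) minus the mean of the 6 arrays, for each WNT ligand gene (above the line) and for the mean of each marker list (below it), with Mest-KO arrays left and control arrays right. The hindbrain neural tube list is high in control 1 and control 3 (0.84 and 0.85) and low in control 2 (-0.25), and Wnt1 reads 0.75, 0.25 and -0.71 in those arrays.

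The hindbrain, which makes Wnt1 and Wnt3a, lies beside the dissected tissue, and its marker genes moved with the arrays. All 15 hindbrain neural tube genes tested had differences below 0, with a median log2 difference of -0.69, and 0 passed (limma), while 8 had an unadjusted p under 0.05, against 3.24% of all genes that were lower at that level. Relative to the mean of the 6 arrays, the list mean was -0.62, -0.04 and -0.77 in Mest-KO 1, 2 and 3, and 0.84, -0.25 and 0.85 in control 1, 2 and 3 (exact permutation p = 0.2). The 19 genes of the list on the array summed to 7086 to 9283 in Mest-KO and 8832 to 12235 in control, and Olig2 and Dbx2 were at or below the unspiked level on every array. Of the 8 roof plate and dorsal neural tube genes, all but Lmx1b and Bmp6 are also in the hindbrain list, so this list largely repeats it. Its mean was -0.53, -0.12 and -0.57 in Mest-KO and 0.72, -0.17 and 0.67 in control, lowest in control 2 among the controls. The 8 genes summed to 4621 to 5854 in Mest-KO and 5883 to 7313 in control. Most of that was Zic1, at 4226 to 5325 in Mest-KO and 5360 to 6191 in control, which was also the largest part of the hindbrain sum. Skor1, a corepressor gene of neural tube interneurons, was picked because control 2 stood apart in it, so it adds no separate support for that. It read 25.6, 30.5 and 18.7 in Mest-KO, against 746.3, 138.0 and 749.8 in control. Its groups did not overlap, and it passed, with a log2 difference of -3.46 ± 0.49 (limma, adjusted p = 0.0256). Control 2 differed from the other controls in sex-linked RNA. The Y-linked gene Eif2s3y read 2077, 1906 and 1912 in Mest-KO and 1095, 1976 and 1047 in control 1, 2 and 3. The X-linked gene Xist read 1999, 2026 and 1641, against 2859, 1733 and 2830. For both genes control 2 lay within the Mest-KO range, and neither passed (limma, adjusted p = 0.382 and 0.576). For the Y-linked genes Uty and Kdm5d, control 2 was the highest of all arrays, at 165.7 and 435.8. Sex-linked RNA thus went partly with genotype, and its part in the differences was not tested.

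2 alternatives were chosen after seeing the data. With the hindbrain list mean as a covariate, the log2 difference was -0.58 ± 0.24 for Wnt7b, -0.11 ± 0.28 for Wnt3a, -0.08 ± 0.31 for Wnt7a and 0.42 ± 0.42 for Wnt1, and 0 of the 10 ligands passed in limma. Against control 2 alone, without control 1 and control 3, it was -0.48 ± 0.25 for Wnt7b, -0.05 ± 0.25 for Wnt3a, -0.05 ± 0.29 for Wnt7a and 0.62 ± 0.29 for Wnt1, where the lone control is assumed to vary like the other group. Control 2 was singled out because the hindbrain list was low in it, as Wnt1 and Wnt3a were, so the direction in which their values moved was set by that choice. Both settings left few residual degrees of freedom, and whether the ligands differ in how far they move was not tested. The means of the hindbrain and roof plate lists overlapped between genotypes, with Mest-KO 2 above control 2 in both. For 3 other marker lists the means did not overlap. The pharyngeal endoderm list mean was -0.48, -0.53 and -0.47 in Mest-KO and 0.73, 0.09 and 0.65 in control. Of the 6 genes tested, 4 were lower at an unadjusted p under 0.05, against 3.24% of all genes. Foxa1 passed, at -1.34 ± 0.17 (limma, adjusted p = 0.0191), where 0.0635% of all genes passed as lower. The 8 genes of that list on the array summed to 1653 to 1876 in Mest-KO and 2465 to 3226 in control. Spink1 was at or below the unspiked level on every Mest-KO array. All 11 cranial ganglion neuron genes were above 0, with a median log2 difference of 0.27. In limma, 8 were higher at an unadjusted p under 0.05 and 1 passed, against 5.73% and 0.0847% of all genes. They summed to 37683 to 39316 in Mest-KO and 31599 to 34274 in control. The periotic mesenchyme list mean was -0.23, -0.01 and -0.06 in Mest-KO and 0.16, 0.09 and 0.05 in control, with 9 of 12 genes below 0. At an unadjusted p under 0.05, 5 were lower and 1 higher, against 3.24% and 5.73% of all genes. The 1 gene of this list that passed, Meox1, went the other way, at 1.15 ± 0.18 (limma, adjusted p = 0.0433), where 0.0847% of all genes passed as higher. The exact permutation p of each of these 3 list means was 0.1. The part of any marker list in the ligands' differences was not tested.

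Wnt5a, a ligand that acts mainly through Ror receptors and planar cell polarity and drives outgrowth of limb, face and cochlea, had 4 probe sets, all above the filter. The brightest read 1711, 1912 and 1444 in Mest-KO, against 2221, 2145 and 1522 in control. Mest-KO 1 and 2 were above control 3, so the groups overlapped, and the log2 difference was -0.20 ± 0.15, with an interval from -0.53 to 0.12 (limma, adjusted p = 0.728). The next brightest differed by -0.25 ± 0.13 and the third by 0.05 ± 0.10. The dimmest read 78.73, 63.43 and 99.997 in Mest-KO, against 62.20, 53.26 and 56.62 in control. For this probe set alone of the 4, every Mest-KO array was above every control array, and the log2 difference was 0.38 ± 0.18 (limma over all probe sets, unadjusted p = 0.0512 and adjusted p = 0.548). The Wnt5a probe sets thus went both ways, and 0 of the 4 passed. Between the dimmest probe set and each of the other 3, the within-array log2 ratio differed between genotypes by 0.59, 0.33 and 0.64, with exact permutation p of 0.2, 0.3 and 0.1. Over the 5 such ratios computed for Wnt5a, Wnt7b and Wnt7a, each adjusted p was 0.5. With the mean of its 4 probe sets as the gene's value, the log2 difference of Wnt5a was close to 0, at -0.01 ± 0.09.

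**Figure D3:**
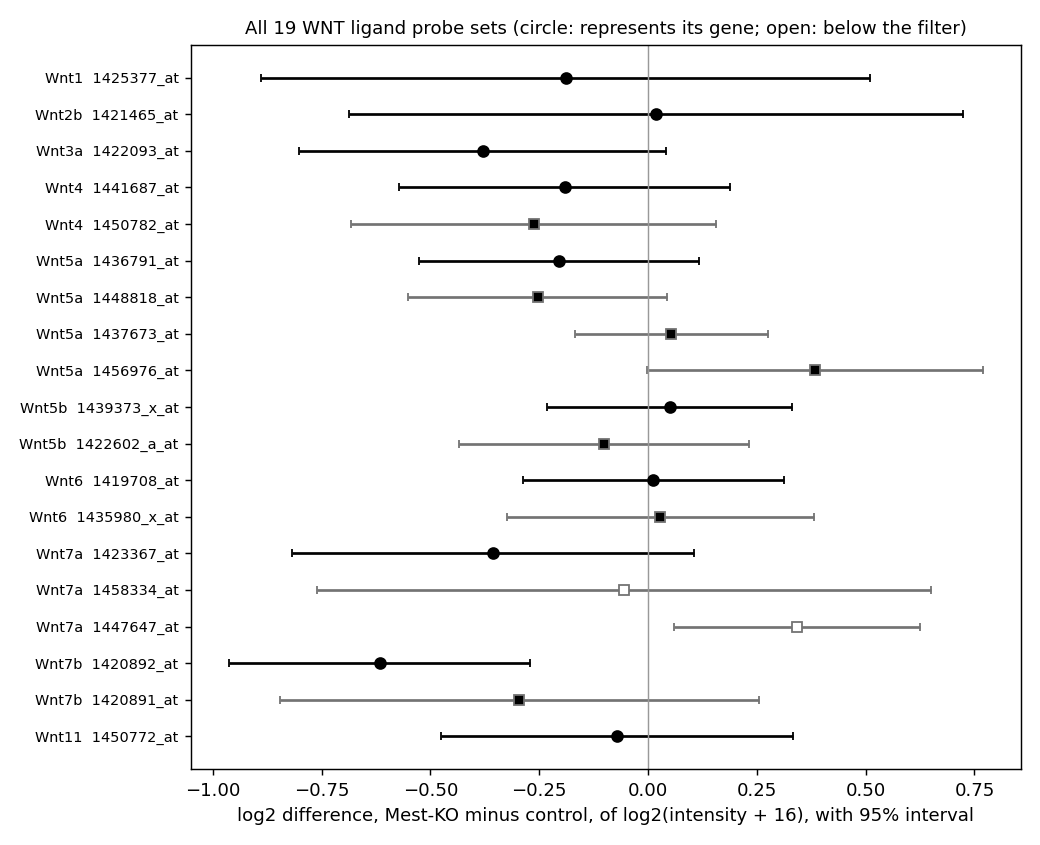
Log2 difference, Mest-KO minus control, of each of the 19 WNT ligand probe sets, with its 95% interval from limma over all probe sets (open symbols: the 2 below the filter, from the fit without a filter). The interval of the brighter Wnt7b probe set lies below 0, and the 4 Wnt5a probe sets lie on both sides of 0, from -0.25 to 0.38.

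Wnt5b, the close relative of Wnt5a, is made in cartilage-forming tissue. Its brighter probe set read 541.3, 727.0 and 602.6 in Mest-KO, against 623.8, 627.6 and 545.1 in control, with the lowest and the highest array both in Mest-KO. The log2 difference was 0.05 ± 0.13, with an interval from -0.23 to 0.33. The dimmer one differed by -0.10 ± 0.15. Probe sets of this kind, marked x or a in the array's naming, can bind related or alternative transcripts.

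Wnt11, a ligand of the ureteric bud tip that directs cell movements, read 44.4, 44.7 and 27.4 in Mest-KO, against 41.8, 44.6 and 36.7 in control. Mest-KO 3 was the lowest array and the other Mest-KO arrays lay beside control 2. The log2 difference was -0.07 ± 0.18, with an interval from -0.48 to 0.33 (limma, adjusted p = 0.941).

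Wnt4, needed for kidney tubules and the female gonad, had 2 probe sets of like signal. The brighter read 90.7, 102.6 and 114.7 in Mest-KO, against 152.1, 105.6 and 104.4 in control. Control 1 was high and the other 2 controls lay within the Mest-KO range, and the log2 difference was -0.19 ± 0.17 (limma, adjusted p = 0.799). The other differed by -0.26 ± 0.19, with 73.6, 73.7 and 120.6 in Mest-KO, against 103.0, 98.9 and 122.7 in control.

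Wnt6, a ligand of surface ectoderm, was the most even of the ligands over the 6 arrays. It read 149.3, 160.6 and 143.3 in Mest-KO, against 156.7, 156.9 and 135.8 in control, with a log2 difference of 0.01 ± 0.13 and an interval from -0.28 to 0.31. Its second probe set differed by 0.03 ± 0.16. Of 10 surface ectoderm genes, 8 were below 0, with a median log2 difference of -0.17, and Tfap2c was at 0.61. The list mean was -0.13, -0.20 and 0.17 in Mest-KO and 0.00, 0.04 and 0.11 in control.

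Wnt2b, which acts with Wnt2 in lung specification, was dim and uneven. It read 19.7, 28.9 and 9.67 in Mest-KO, against 3.75, 28.1 and 29.4 in control. Control 1 and Mest-KO 3 were at or below the unspiked level, and the log2 difference was 0.02 ± 0.32, with an interval from -0.69 to 0.73 (limma, adjusted p = 0.993). At this signal the interval of Wnt2b covers sizeable changes in either direction, and the same holds for Wnt1. The smallest change that would have passed over all genes was not worked out.

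The array held 9 further WNT ligand genes, of which 4 passed the filter. Wnt9b, an epithelial ligand of kidney duct and face, read 86.0, 108.5 and 97.5 in Mest-KO, against 144.8, 147.4 and 131.7 in control. The groups did not overlap, and the log2 difference was -0.48 ± 0.14 (limma, unadjusted p = 0.00701 and adjusted p = 0.290). Wnt10a, an ectodermal ligand of tooth and skin, read 27.8, 28.1 and 26.9 in Mest-KO, against 17.1, 15.1 and 23.2 in control, with a log2 difference of 0.35 ± 0.17 (adjusted p = 0.587). Wnt9a differed by 0.21 ± 0.18, and by -0.080 with the mean of all its probe sets. Wnt3 differed by -0.14 ± 0.22, and by 0.42 with the hindbrain covariate. Wnt3 read 60.3, 76.4 and 69.3 in Mest-KO, against 105.6, 48.8 and 85.5 in control, with control 2 lowest and control 1 highest of all 6 arrays, as for Wnt1. Wnt2, Wnt8a, Wnt8b, Wnt10b and Wnt16 were below the filter.

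Several ligand genes are neighbours in the mouse genome, and whether neighbours differ from each other in their differences was not tested. Wnt6 lies next to Wnt10a, where the log2 differences were 0.01 ± 0.13 and 0.35 ± 0.17. Wnt3a lies next to Wnt9a, with -0.38 ± 0.19 and 0.21 ± 0.18. Wnt1 lies next to Wnt10b, which was below the filter.

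The other genes of the pathway were described from lists of 100 genes, of which 96 had a probe set and 86 were tested. Of the 86, 0 passed over all genes (limma). At an unadjusted p under 0.05, 5 were higher and 11 lower in Mest-KO, beside 5.73% higher and 3.24% lower among all genes. The median log2 difference over the 86 was -0.05.

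**Figure D4:**
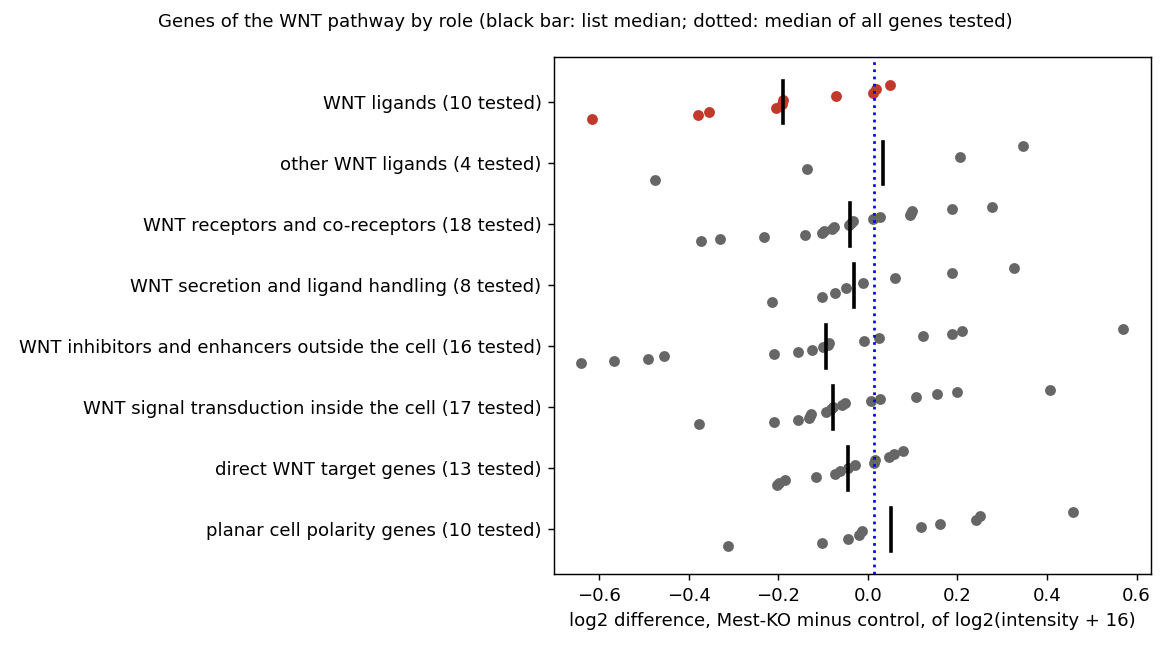
Log2 difference, Mest-KO minus control, of each tested gene of the WNT pathway, by role (points), with the median of each list (black bar) and of all genes tested (dotted line, 0.01). The WNT ligands have the lowest list median, -0.19, and the genes farthest from 0 are Sostdc1 at -0.64, Wnt7b at -0.62, Rspo1 at 0.57 and Lgr5 at -0.57.

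Among 18 receptors and co-receptors, 11 had differences below 0 and the median was -0.04. The 3 with the smallest p were Fzd4, the Frizzled of retinal vessels (966.5 ± 76.5 in Mest-KO and 1268 ± 248 in control, log2 difference -0.37 ± 0.13), Ror1, a receptor for Wnt5a (926.5 ± 79.3 in Mest-KO and 761.6 ± 54.7 in control, 0.28 ± 0.10), and Fzd9 (-0.33 ± 0.19). Their limma adjusted p were 0.413, 0.449 and 0.640. With the probe set of median level, Ror1 differed by -0.18. Among the 8 genes of WNT secretion and handling, Porcn, which encodes the enzyme that attaches the lipid to WNT proteins, read 278.5 ± 20.8 in Mest-KO and 219.9 ± 32.1 in control (0.33 ± 0.14; limma, adjusted p = 0.525). Trabd2b, whose product cleaves WNT proteins, differed by -0.21 ± 0.12 and the WNT transporter gene Wls by -0.10 ± 0.09, or 0.038 with the hindbrain covariate.

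Proteins that bind WNTs or tune their receptors outside the cell held the largest differences. Frzb, a secreted WNT-binding inhibitor, read 1251, 1275 and 1121 in Mest-KO, against 1605, 1689 and 1719 in control, with a log2 difference of -0.46 ± 0.09 (limma, adjusted p = 0.0954). Sostdc1, an inhibitor of WNT and BMP signals, read 773.4, 895.1 and 1198 in Mest-KO, against 1592, 1417 and 1417 in control (-0.64 ± 0.14; adjusted p = 0.165). Rspo2, an R-spondin that enhances WNT signals, read 465.0, 520.2 and 443.3 in Mest-KO, against 704.7, 619.9 and 701.8 in control (-0.49 ± 0.11; adjusted p = 0.165). For these 3 genes no Mest-KO array reached the lowest control array, and 0 of them passed. Rspo1, the other way, read 179.1, 156.7 and 123.1 in Mest-KO, against 116.5, 69.6 and 110.1 in control (0.57 ± 0.20; limma, adjusted p = 0.407). In the list of 16, groups did not overlap for 1 gene that was higher and 6 that were lower in Mest-KO, against 9.32% and 5.22% of all genes. With arrays centred on their medians, Frzb and Sostdc1 passed (limma, adjusted p = 0.0494 and 0.0391), and without Mest-KO 3 Sostdc1 did (adjusted p = 0.0199). The list had 11 differences below 0 and a median of -0.09.

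Inside the cell, Bcl9, a beta-catenin coactivator gene, read 1913 ± 107 in Mest-KO and 2495 ± 216 in control (log2 difference -0.38 ± 0.09; limma, adjusted p = 0.170). With the mean of all its probe sets, Bcl9 differed by 0.12. Dvl1, a Dishevelled gene, differed by 0.20 ± 0.07 and Dvl3 by 0.41 ± 0.27 (limma, adjusted p = 0.382 and 0.695). The 17 genes of this list had a median of -0.08. Among 13 direct targets of WNT signalling the median was -0.04 and 8 differences were below 0. Axin2, the feedback inhibitor used as a general readout of beta-catenin signalling, read 2232, 2374 and 2179 in Mest-KO, against 2618, 2460 and 2745 in control. Its groups did not overlap, and its log2 difference was -0.20 ± 0.08 (limma, unadjusted p = 0.0217 and adjusted p = 0.443). Lef1, a transcription factor that carries the signal and is itself a target, read 2308, 2266 and 2294 in Mest-KO, against 2480, 2578 and 2770 in control (-0.19 ± 0.07; adjusted p = 0.470). Dlx5, which is also an otic epithelium marker here, differed by -0.20 ± 0.19. Of the 10 planar cell polarity genes, 5 were below 0 and the median was 0.05, with Celsr2 at -0.31 ± 0.12, Vangl1 at 0.46 ± 0.19 and Scrib at 0.25 ± 0.12 (limma, adjusted p = 0.474, 0.497 and 0.569). Vangl1 kept its direction in 13 of 19 alternatives and read down to -0.20, so its direction is not settled.

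The genes most like each ligand over the 6 arrays were named by Pearson correlation of log2 values, with no test. For each ligand, between 38 and 129 of the genes tested had a correlation above 0.9. How many would do so by chance over 6 arrays was not worked out, so the names are a description only. For Wnt7b they were Dmrt3, a transcription factor gene of spinal interneurons (r = 0.988), Fam167a (0.987) and Dazap2 (0.981). Dmrt3 averaged 81.8 in Mest-KO and 141.8 in control, Fam167a 28.5 and 44.3, and Dazap2 2562 and 2674. For Wnt3a they were Tyms-ps (0.996), Stk33 (0.991) and Barhl2, a homeobox gene of dorsal neural tube interneurons (0.987). These averaged 35.5, 27.2 and 19.1 in Mest-KO, against 44.5, 39.2 and 60.1 in control. For Wnt7a they were Ewsr1 (0.990), Chrna7 (0.987) and Hes1 (0.986), a target of Notch signalling. For Wnt1 they were Prss53 and 2 unnamed transcripts, C130026I21Rik and 4933430I17Rik (0.977 to 0.980). For Wnt5a they were Ndufb9 (0.994), Gmppb (0.992) and Ralgps2 (0.982). The first for Wnt2b was Ibtk (0.992), for Wnt4 Ifit1bl2 (0.989), for Wnt5b Gm5817 (0.988), for Wnt6 Gm5617 (0.993) and for Wnt11 Zfp213 (0.990).

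**Figure D5:**
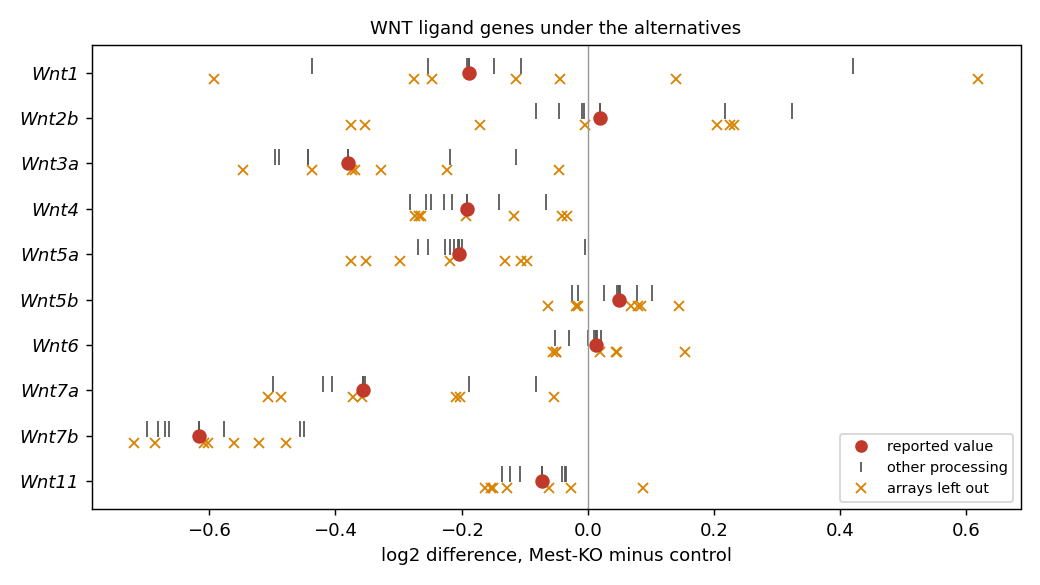
Log2 difference, Mest-KO minus control, of each WNT ligand gene as reported (red) and under alternatives of processing (ticks) or with arrays left out (crosses). Wnt7b stays between -0.72 and -0.45, and Wnt1 spans -0.59 to 0.62.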

How the data were processed

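Each of the 6 arrays (1-colour, Affymetrix mouse genome design) was labelled from 300 ng of total RNA, per the labels' protocols. The authors deposited linear intensities. The submitters' processing notes name Affymetrix Expression Console 1.1. How probes were summarized and background corrected is not given in the sources used here. Leaving out 2% of probe sets at each end, every array had a mean of 500.002, and a shift common to most genes could therefore not be seen. The medians lay between 60.0 and 70.6. Precision is limited by the number of arrays.

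The platform's annotation gave 34945 of 45101 probe sets 1 gene symbol and 932 several genes. It did not list 9160, and 64 were controls. The probe set with the highest mean over the 6 arrays stood for its gene, and genes at or under the 30th percentile of probe set means (intensity 13.26) were left out, which kept 14170 of 18193 genes. A second fit took 26736 probe sets. Mest-KO was compared with control on log2(intensity + 16) with limma 3.58.1 (R 4.3.3), eBayes with trend and genotype as the only term. The p-values are two-sided and adjusted over all genes by Benjamini-Hochberg, and errors of log2 differences are standard errors. Permutation tests were exact and two-sided. Per the labels the arrays of a genotype are biological replicates. The steps were tested on simulated data.

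The text names every WNT ligand on the array, Tbx1, Skor1, the 3 genes of smallest p in each pathway list and, of the 3 genes most like each ligand, all 3 or the first. Adgra2, Reck, Rspo1, Lgr5, Tfap2c, Zic1, Foxa1, Meox1 and Eif2s3y were added after their values were seen. So were Xist, Uty, Kdm5d, Hmx3, Sox10, Otx1 and Gata3. The members and lists were chosen with earlier results of these data known. Alternatives covered scaling, pseudocount, filter, choice of probe set, variance trend, a replicate block and left-out arrays. Arrays with the same number did not pair (correlations of deviations -0.15 to -0.03).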

Additional observations from a re-analysis of the deposited data

How the results depend on the processing

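Across 183 values of the 10 ligand genes under 19 alternatives, 161 kept their direction and 22 did not, and 0 passed; the lowest adjusted p was 0.0677, for Wnt7b with arrays centred on their medians. The count of 0 ligand genes and of 0 ligand probe sets past the threshold was the same in each alternative run for it. Wnt3a, Wnt4, Wnt5a, Wnt7a and Wnt7b kept a negative difference wherever they were tested; a filter at the 50th percentile left 5 of the 10 ligands. Dim or flat ligands changed sign. Wnt2b read -0.0061 with quantile normalization, -0.0085 with a pseudocount of 64, -0.046 with median centring and -0.082 with the hindbrain covariate, and Wnt6 read -0.030 with quantile normalization and -0.052 with median centring. Wnt5b read -0.015 with median centring and -0.026 with the mean of all probe sets, and Wnt1 read 0.42 with the hindbrain covariate. Against control 2 alone, Wnt1, Wnt2b, Wnt5b and Wnt6 read 0.62, -0.35, -0.019 and -0.051. Leaving out 1 array at a time gave -0.59 to 0.14 for Wnt1, -0.37 to 0.23 for Wnt2b, -0.064 to 0.14 for Wnt5b, -0.055 to 0.15 for Wnt6 and -0.15 to 0.088 for Wnt11. The cause of these changes was not tested.

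The count of 21 genes became 76 with median centring, 2 without a filter, 6 with the mean of all probe sets, 1 without trend, 4 with the hindbrain covariate and 5 against control 2 alone, and leaving out 1 array gave 2 to 84, the lowest without control 1 and the highest without control 2. Of the pathway genes, 2 passed with median centring, and leaving out 1 array gave 0 to 1. The replicate number as a block gave 9 genes and 0 ligands (Wnt7b -0.62 ± 0.16; limma, adjusted p = 0.284), but the numbers did not pair the arrays. Signal limits Wnt1, Wnt2b, Wnt3a, Wnt7a and Wnt11, which lay within a few-fold of the unspiked controls.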
